A study of Mus musculus with 102 samples.

Results

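The Gnas imprinted cluster lies on mouse chromosome 2, and its CpGs were taken by position alone, as all CpGs of the capture table in a window of 55 kb on the mm9 build, from the first measured CpG at 174108708 to the last at 174159856. This window held 629 of the 2177608 CpGs measured. DNA methylation was read by bisulfite sequencing after SureSelect capture in mouse embryonic stem cells of the C57BL6/J strain. The TTKO line is a single clone in which Tet1, Tet2 and Tet3 were mutated, made in a line with loxP-flanked catalytic exons of Dnmt3a and Dnmt3b, and it was measured without Cre (day 0, Dnmt3a/3b intact) and at 6 later times, on days 4, 8, 10, 13, 17 and 29 counted from transduction of Cre protein, which removes those exons. The wild-type line has intact TET and intact Dnmt3a/3b and was captured at day 0 only. For its amplicon time course, the study describes wild type as the parental line of TTKO, which carries the same loxP sites. The capture samples are labelled only as WT. Each of these 8 groups comprised 3 replicates, which the deposited table joins in 1 column, so the replicate spread cannot be computed from it and each test compares pooled libraries rather than conditions. Cells stood on feeders at transduction and were feeder-free afterwards.

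Gnas encodes the stimulatory G protein alpha subunit, and the cluster produces several transcripts from promoters that are marked differently on the 2 parental alleles. As background from somatic tissues and germ cells, Nesp (a neuroendocrine secretory protein) is expressed from the maternal allele and its promoter is methylated on the paternal one. Gnasxl (the extra-large variant of the alpha subunit), the antisense RNA Nespas and the exon 1A transcripts are expressed from the paternal allele, with their promoters methylated on the maternal one, and the Nespas/Gnasxl region and exon 1A acquire that methylation in the oocyte. De novo methylation is applied by DNMT3A and DNMT3B, maintained at replication by DNMT1 and removed actively by the TET enzymes. The zinc-finger protein ZFP57 binds a methylated hexamer at imprinted control regions and is known for preserving their methylation. The pooled reads carry no allele, so a level of one methylated allele and a level of mixed cells cannot be told apart here.

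The 629 CpGs formed 15 runs with gaps of at most 300 bp between neighbours, and 7 of these runs held 599 CpGs and are named after the transcript starts or exons they cover. The Nesp block (92 CpGs, 174108708 to 174110697) held the Nesp start at 174109821, its first exons and exons of Nespas. The Nesp intron block (36 CpGs, 174111463 to 174112278) and the Nesp 3' intron block (20 CpGs, 174113101 to 174113840) lay further downstream in Nesp introns. The Nespas start block (61 CpGs, 174120256 to 174121615) held the Nespas start at 174120937 on the minus strand. The Gnasxl upstream block (18 CpGs, 174122649 to 174123124) lay before the Gnasxl start at 174123360. The Gnasxl exon block (175 CpGs, 174123974 to 174126539) lay for 151 CpGs in coding exon, for 19 in untranslated exon and for 5 in intron. The exon 1A block (197 CpGs, 174151436 to 174155194) held 6 annotated starts, the first at 174153071. The starts of the canonical Gnas exon 1, of which the first is at 174155507, held no measured CpG, and the remaining 30 CpGs were scattered over 8 short runs.

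The 250 bases before the first starts of Nesp, Nespas and exon 1A are shown because the 3 promoters, all rich in CpGs, carried different methylation in these cells. They were read from the NCBIM37 (mm9) assembly on the strand of their transcript, with the measured CpGs in capitals.
Nesp promoter, chr2:174109571-174109820, plus strand: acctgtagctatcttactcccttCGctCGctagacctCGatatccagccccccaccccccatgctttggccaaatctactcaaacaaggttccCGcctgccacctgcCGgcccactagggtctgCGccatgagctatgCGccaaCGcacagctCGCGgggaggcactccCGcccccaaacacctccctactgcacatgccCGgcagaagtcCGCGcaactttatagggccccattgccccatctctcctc
Nespas promoter, chr2:174120938-174121187, minus strand: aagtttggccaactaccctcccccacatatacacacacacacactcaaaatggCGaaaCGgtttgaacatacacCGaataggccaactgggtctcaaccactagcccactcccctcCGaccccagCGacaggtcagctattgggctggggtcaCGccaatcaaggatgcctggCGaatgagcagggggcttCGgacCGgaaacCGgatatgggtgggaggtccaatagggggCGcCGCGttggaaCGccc
exon 1A promoter, chr2:174152821-174153070, plus strand: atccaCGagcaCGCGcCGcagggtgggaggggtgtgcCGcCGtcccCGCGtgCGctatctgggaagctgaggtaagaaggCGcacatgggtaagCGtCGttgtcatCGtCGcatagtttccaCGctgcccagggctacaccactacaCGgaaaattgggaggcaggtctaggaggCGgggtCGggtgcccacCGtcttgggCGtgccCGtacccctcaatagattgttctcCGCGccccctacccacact
All 14 CpGs of the Nesp stretch, all 14 of the Nespas stretch and all 23 of the exon 1A stretch were measured. In TTKO at day 0 their mean levels were 14.5% at Nesp, 33.8% at Nespas and 5.48% at exon 1A, and in wild type 3.48%, 34.8% and 4.67%. At day 29 the TTKO means were 1.79%, 23.3% and 1.90%. In the Nespas stretch single CpGs lay between 30.8% and 37.1% at day 0, whereas the Nesp stretch ran from 4.5% to 36.5%.

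At steady state in TTKO, the cluster alternated between a long region of intermediate methylation over Nespas and Gnasxl and regions that were low at the Nesp and exon 1A starts and rose on their upstream side. The mean level at day 0 was 33.9% in the Nespas start block, 38.0% in the Gnasxl upstream block and 35.7% in the Gnasxl exon block. These 3 blocks together, joined after their levels were seen, held 254 CpGs over 6284 bp with a mean of 35.5%. Their CpGs differed by an SD of 6.47 points, against an SD of 3.495 points that read counting alone gives at their coverage. In the Nespas start block the SD between CpGs was 3.96 points and the counting SD 2.73. At the downstream edge the 3 CpGs more than 3100 bp after the Gnasxl start, picked after their levels were seen, averaged 67.8%, while the other 172 CpGs of the Gnasxl exon block ran from 23.1% to 54.9%.

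The Nesp block averaged 18.7% at day 0 (28.4% when CpGs were weighted by their reads), but its 3 zones by distance from the start, set after the levels were seen, were far apart. The 20 CpGs more than 500 bp before the Nesp start averaged 46.9%, with a range of 19.4% to 86.2% and a median coverage of 592.5 reads. The 47 CpGs within 500 bp averaged 14.9% on a median of 189 reads, and the 25 further downstream 3.40% on 167. The exon 1A block had the same order on its upstream side. Its 24 CpGs more than 500 bp before the first exon 1A start averaged 68.7%, the 83 CpGs within 500 bp 8.64% and the 90 CpGs beyond 11.2%. Downstream of exon 1A 8 CpGs at 820 to 895 bp after the start, picked after their levels were seen, averaged 39.4%, while the 21 other CpGs between 600 and 1100 bp averaged 12.3%. The exon 1A start itself, a germline methylated region in somatic tissue, was at 7.08% over 74 CpGs from 400 bp before to 448 bp after the first start, a stretch also picked later, with single CpGs from 0% to 51.7% and a mean of 4.62% in wild type.

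**Figure D1:**
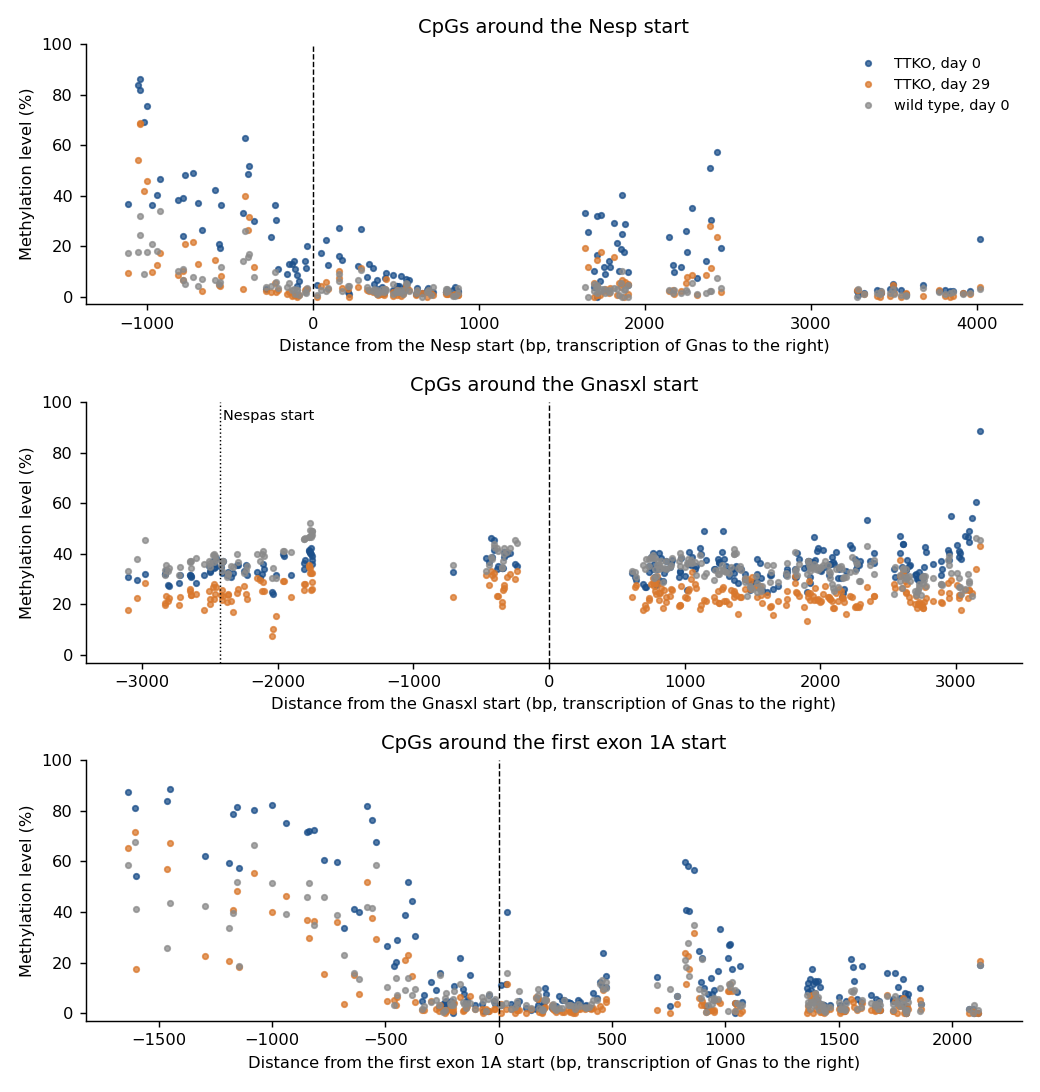
Methylation level of each CpG (percent, vertical axis) against its distance in bp from the Nesp start (top), the Gnasxl start (middle, with the Nespas start dotted) and the first exon 1A start (bottom), for TTKO at day 0 and day 29 and for wild type at day 0, each point being 1 CpG in the joined replicates. In the middle panel the blocks average 35.5% at day 0 and 24.4% at day 29, with 3 CpGs at the downstream edge averaging 67.8% at day 0, while the other panels fall from high levels upstream to low levels at the start.

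The wild-type line separated the same regions. Over Nespas and Gnasxl, where TTKO averaged 35.5%, wild type averaged 34.7% with single CpGs from 23.2% to 52.3%, and wild type was above TTKO at 134 of the 254 CpGs. The blocks went different ways. Wild type was above at 53 of 61 CpGs of the Nespas start block and 12 of 18 of the Gnasxl upstream block. In the Gnasxl exon block it was above at 69 of 175. Fisher's exact test on the pooled reads, with Benjamini-Hochberg adjustment over the whole table, called 22 of these CpGs higher in TTKO and 11 lower. Over all 2177608 CpGs, 44.7% were called higher in TTKO and 0.907% lower. In the whole window 176 of 629 CpGs (28.0%) were higher and 13 lower, so both the window and the 254 CpGs (8.66% higher) stood below the table's share for higher calls. For lower calls the window (2.07%) and the 254 CpGs (4.33%) stood above the table's 0.907%. Of the 13 lower calls, 8 were in the Nespas start block, which averaged 38.5% in wild type. None of these 8 passed with an over-dispersion of 0.0055, a setting made for amplicon data, added to the counting error, under which 1 lower call was left in the window. The 22 higher calls over Nespas and Gnasxl were 5 under that setting. Of all 2177608 CpGs, 743209 were called higher and 4948 lower under it.

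Calls on the Nesp side of the cluster differed by block. The Nesp intron block averaged 20.3% in TTKO and 2.97% in wild type, and 30 of its 36 CpGs (83.3%) were called higher, against 44.7% of the table. In the Nesp 3' intron block 1 of 20 was (5%), with means of 3.46% and 1.72%. Of the Nesp block, 49 of 92 CpGs (53.3%, near the table's share) were called higher, among them all 20 CpGs more than 500 bp before the start, which averaged 46.9% in TTKO and 13.7% in wild type. The 5 CpGs 1002 to 1054 bp before the start were picked after their levels were seen. They ranged from 69.1% to 86.2% in TTKO and from 8.9% to 32.1% in wild type. Over all 20 CpGs of the zone the ranges overlapped, with 19.4% to 86.2% in TTKO and 4.3% to 34% in wild type. From the Nesp start to 875 bp after it, both lines were low, with means of 6.48% and 2.96% over 51 CpGs.

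At exon 1A the share of CpGs called higher in TTKO was above the table's 44.7% upstream of the start and below it from the start onwards. The 24 CpGs more than 500 bp before the first start averaged 68.7% in TTKO and 41.3% in wild type, and 21 of them were called higher. Within 500 bp of the start 11 of 83 CpGs (13.3%) were called higher, where means were 8.64% and 5.19%. Of the 90 CpGs further downstream, 22 (24.4%) were called higher and 2 (2.22%) lower, against 0.907% of the table for lower calls, with means of 11.2% and 5.70%. The 8 CpGs at 820 to 895 bp after the start had 39.4% in TTKO and 19.1% in wild type. The CpG nearest the first exon 1A start (174153080) had 3.3% in both lines, on 60 reads in TTKO and 90 in wild type. The CpG nearest the last of these starts (174153526) had 10.9% in TTKO and 13.1% in wild type.

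The CpG with the largest excess of TTKO over wild type in the window lay in none of the promoters. It was at 174159780, in a coding exon of Gnas, and had 74.6% in TTKO (95% Wilson interval 70.0 to 78.6, 389 reads) against 4.1% in wild type (2.70 to 6.31, 483 reads), with adjusted p = 1.49e-113 by Fisher's exact test. The 5 CpGs of its run averaged 64.0% in TTKO and 11.6% in wild type. The largest excess of wild type, 50% against 33.3% at the intronic CpG 174133269, rested on 72 and 63 reads and did not pass (adjusted p = 0.114, Fisher's exact test). Intervals and tests cover counting error only, since sequenced copies of 1 molecule are not told apart, and CpGs of 1 block share reads and are not independent replicates.

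**Figure D2:**
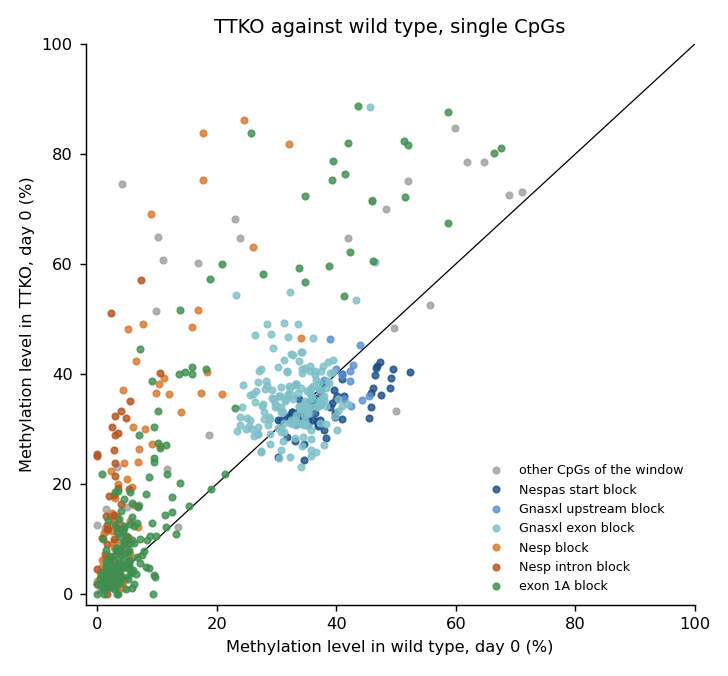
Methylation level of each of the 629 CpGs in TTKO at day 0 (vertical axis, percent) against wild type at day 0 (horizontal axis, percent), coloured by block, with the line of equal levels. CpGs of the Nespas start, Gnasxl upstream and Gnasxl exon blocks gather around the line near 35%, while many CpGs of the Nesp, Nesp intron and exon 1A blocks lie above it.

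After transduction of Cre, the mean level fell in each of the 7 named blocks. The capture time course has no mock-treated group. Days in culture and the move off feeders therefore go along with the removal of DNMT3A and DNMT3B and were not tested apart from it. The window mean was 25.9% at the start and, over the 6 later times in order, 24.3%, 22.1%, 21.4%, 19.6%, 17.2% and 14.6%. Of the 629 CpGs, Fisher's exact test called 10 lower than the start on day 4 (table: 1.55% called), 54 on day 8 (14.4%), 136 on day 10 (35.7%), 196 on day 13 (43.6%), 286 on day 17 (55.7%) and 356 on day 29 (59.3%). In the other direction, the test called 1 CpG higher, downstream of exon 1A on day 13, and 0 on the 5 other days, while 0.137%, 0.0853%, 0.0881%, 0.137%, 0.138% and 0.171% of all CpGs were called higher over the 6 times. With an over-dispersion of 0.0055 no CpG of the window was called higher on any of them, and of all 2177608 CpGs 0, 0, 3, 14, 16 and 38 were. In either direction 63, 121, 176, 237, 322 and 397 CpGs had an unadjusted p under 0.05 by Fisher's exact test. Of all 2177608 CpGs, 225394, 547019, 920046, 1053762, 1262839 and 1326890 did. All 6 comparisons share the day 0 column. With the over-dispersion added, 0, 0, 17, 59, 147 and 218 CpGs were called lower at these days. Of all 2177608 CpGs, 24, 8159, 187628, 492420, 979911 and 1154318 were. The window's calls of days 4 and 8 thus rested on counting as the only error, as did most calls of the table at those days.

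At day 29, 146 of the 254 CpGs over Nespas and Gnasxl (57.5%), 28 of 36 in the Nesp intron block, 56 of 92 in the Nesp block and 95 of 197 (48.2%) in the exon 1A block were called lower, shares on both sides of the table's 59.3%. With the over-dispersion 58 of the 254 CpGs were called lower, and 1154318 of the 2177608 CpGs of the table. Over Nespas and Gnasxl the mean fell from 35.5% through 33.5%, 31.9%, 32.2%, 29.6% and 26.7% to 24.4% at days 4, 8, 10, 13, 17 and 29, so that 68.7% of the day 0 level was left. In points this fall of 11.1 was near that of the Nesp block, which fell by 11.0, and of the exon 1A block, which fell by 9.72, both from lower starting levels. The retained share was 72.6% in the Nespas start block, 73.6% in the Gnasxl upstream block and 66.8% in the Gnasxl exon block. It was 41.2% in the Nesp block, 32.9% in the Nesp intron block and 43.2% in the exon 1A block. The Nesp 3' intron block, at 3.46% on day 0, was too low for a share to be read, and 5 of its 20 CpGs were called lower.

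Within the 2 blocks that were split, the high upstream CpGs kept more than the start. The upstream zone of Nesp fell from 46.9% to 22.2% (47.4% retained) and the zone around the start from 14.9% to 4.79% (32.1%). The upstream zone of exon 1A fell from 68.7% to 36.3% (52.8% retained) and the zone around the start from 8.64% to 2.94% (34.1%). These zones entered the time course at different levels, and across the table the median retained share rose with the starting level above 20% at day 0, from 17.2% in the bin of 20 to 25% to 87.9% in that of 95 to 100%, so they were set against CpGs of like level below.

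**Figure D3:**
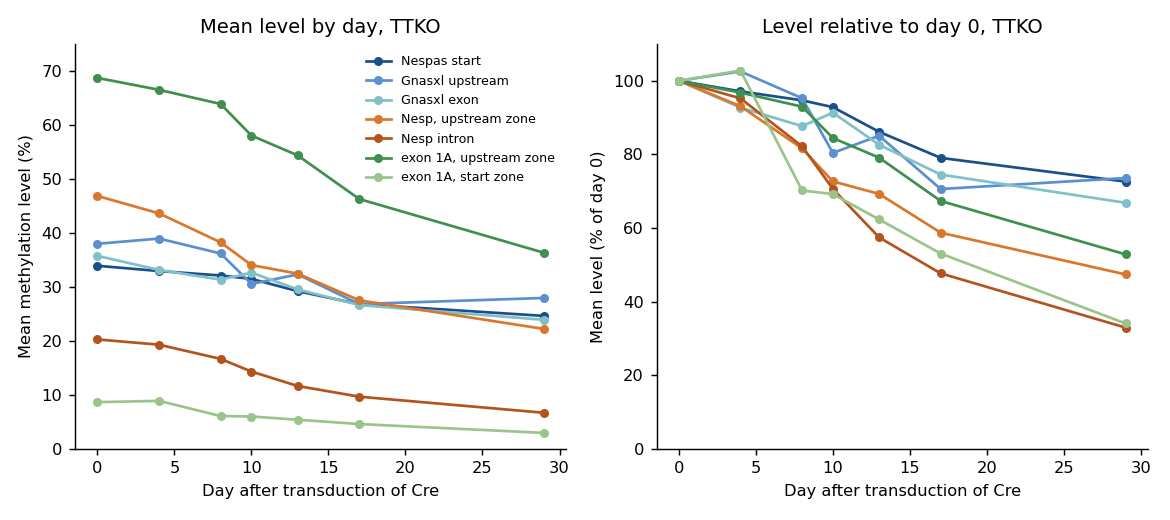
Mean methylation level of TTKO by day after transduction of Cre, in percent (left) and as percent of day 0 (right), for 4 blocks and 3 zones of the cluster, each point being the mean over CpGs in the joined replicates. The 3 blocks over Nespas and Gnasxl end between 66.8% and 73.6% of day 0, and the other lines end between 32.9% and 52.8%.

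The CpGs of the rest of the table that started at the same level lost far more than those of Nespas and Gnasxl. Among 76063 CpGs outside the window within 5 points of 35.5% at day 0, 24.0% of the day 0 methylation was left at day 29, with a 10th to 90th percentile of 8.57% to 41.8% for single CpGs. Of the 254 CpGs, 176 were within these 5 points, and all 176 retained a share above that 90th percentile, between 47.4% and 102%. When each CpG was set against the rest of the table in its own 5-point bin of the day 0 level, 60 of 61 CpGs of the Nespas start block, 18 of 18 of the Gnasxl upstream block and 169 of 175 of the Gnasxl exon block were above the 90th percentile, against 10% of the table by construction. The median coverage of the 176 CpGs was 227.5 reads and that of the like-level CpGs 260. The like-level CpGs also differed in wild type, where their median was 12.2%, while the 254 CpGs had a mean of 34.7%.

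In the other regions of the cluster fewer CpGs exceeded that percentile. None of the 20 CpGs in the upstream zone of Nesp was above the 90th percentile of its bin, although 18 were above the median. In the upstream zone of exon 1A 2 of 24 were above the 90th percentile and 8 above the median. In the Nesp intron block 10 of 29 CpGs with at least 10% at day 0 were above it, within 500 bp of the Nesp start 5 of 26 (19.2%), around the exon 1A start 3 of 21, and in the zone further downstream of it 11 of 36 (30.6%). In the scattered runs 1 of 27 was.

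**Figure D4:**
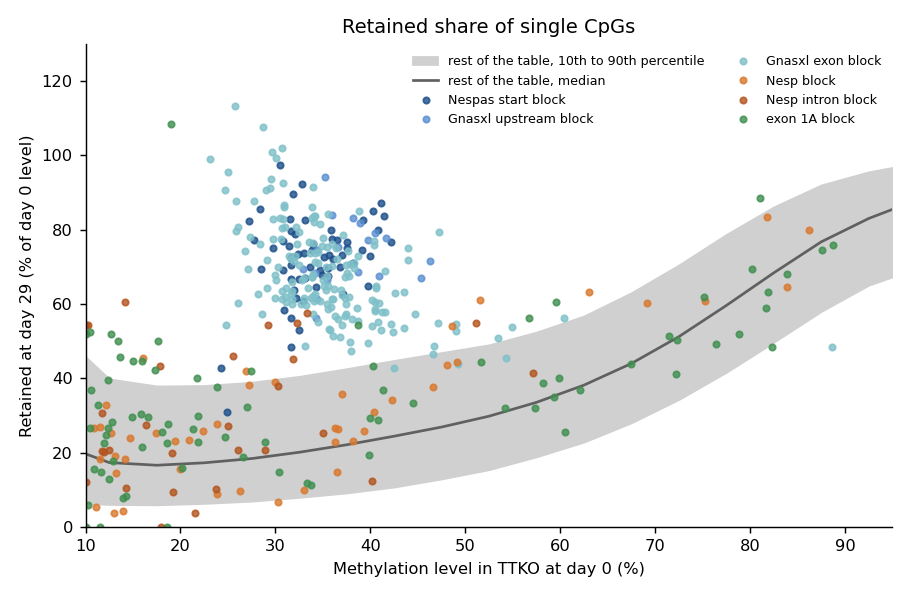
Share of the day 0 level retained at day 29 (vertical axis, percent) against the TTKO level at day 0 (horizontal axis, percent) for CpGs with at least 10% at day 0, coloured by block, over the median (line) and the 10th to 90th percentile (grey) of the rest of the table in 5-point bins. CpGs of the Nespas start, Gnasxl upstream and Gnasxl exon blocks lie above the grey band in 247 of 254 cases, and CpGs of the other blocks lie mostly inside it.

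Single CpGs of the Nespas start block retained between 30.9% and 97.4%. At day 29 they differed by an SD of 5.18 points, against a counting SD of 2.40, and 8 of the 61 CpGs, between 174120256 and 174121350, were under 20%. The CpG nearest the Nespas start (174120941) had 34.9% at day 0, then 36.2%, 33.2%, 28.5%, 27.3%, 26.6% and 23.7% at day 29, with 35.6% in wild type and adjusted p = 2.62e-05 for day 29 against day 0 by Fisher's exact test. The CpG with the largest retained share in this block (174121229) had 30.5% at day 0 and 29.7% at day 29, and all days lay between 28.5% and 33.2%. The CpG with the smallest share (174121316) lay only 87 bp away and had 24.9% at day 0, 15.6% already at day 4, and 7.7% at day 29 (95% interval 5.61 to 10.5, 468 reads), with adjusted p = 3.19e-12 by Fisher's exact test. In wild type this CpG had 30.3%. The next 2 CpGs, 6 and 33 bp further on, were also low at day 29, with 10.4% and 15.3%, and were picked after their levels were seen. The CpG at 174121316 was the only 1 of the 61 that did not exceed the 90th percentile of its bin.

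In the Gnasxl exon block 6 of 175 CpGs did not exceed the 90th percentile of their bin and 1 was below the 10th. In the Gnasxl upstream block the CpG with the largest share (174123123) kept 94.3%, with 35.2% at day 0 and 33.2% at day 29, and the one with the smallest (174123010) kept 56.3%, falling from 34.3% to 19.3%. In the Gnasxl exon block 4 CpGs were nominally higher at day 29 than at day 0, none of them by the test. The largest share, 29.1% against 25.7% at the coding CpG 174124840, rested on 175 and 140 reads with adjusted p = 0.669 by Fisher's exact test. The smallest share was at the coding CpG 174124472, which fell from 42.5% to 18.2% (adjusted p = 6.45e-05, Fisher's exact test).

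By contrast, the Nesp intron block held CpGs that reached the floor. The CpG with the smallest share there (174111652, in a Nespas exon) had 21.5% at day 0, then 13.2%, 14.7%, 10.1%, 3.8%, 2.6% and 0.8% at day 29, on 130 reads. The CpG with the largest share (174111463) went from 33.3% to 19.2%, with 3.9% in wild type. In the last run of the window, the coding CpG 174159780 kept 53.8%, from 74.6% to 40.1%, and the intronic CpG 174159691 kept 27.6%, from 60.8% to 16.8%.

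Rates were fitted with the model of the study's methods (8% of alleles taken as intact after Cre), in which a de novo methylation rate that fades after Cre and a passive demethylation rate (the loss left without TET, through imperfect maintenance) set each CpG's decay. Both rates were narrow enough to be read, with 95% credible ranges under a 4-fold span, at 131 of the 629 CpGs. At 41 such CpGs over Nespas and Gnasxl the median passive demethylation rate was 0.0227 per day and the median de novo rate 0.0128 per day. The like-level CpGs of the table had a median passive rate of 0.0712 per day (quartiles 0.0588 to 0.0947). In the Nesp block the passive rate was 0.0535 per day at 28 CpGs, of which 20 lay in the upstream zone, where the median was also 0.0535 and like-level CpGs had 0.0588. In the upstream zone of exon 1A it was 0.0332 per day at 20 CpGs, where like-level CpGs had 0.0332 as well. Over Nespas and Gnasxl the CpGs with narrow ranges were those that lost more, with a median retained share of 57.8% against 71.6% at the other 213, so these rates stand for the faster CpGs of the region. The model also takes each CpG as 1 uniform population, and unlike alleles were not modelled.

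The ZFP57 hexamer TGCCGC, searched on both strands, contained 17 of the 629 CpGs, while 1.05% of all CpGs of the table lie in it. Of these, 5 were in the Nespas start block, 1 in the Gnasxl upstream block, 6 in the Gnasxl exon block, 3 in the exon 1A block and 2 in the Nesp block. The hexamer occurs on chromosome 2 in 8.03% of windows of the length of the Nespas start block and in 14.2% of windows of the length of the Gnasxl exon block. The blocks held 4 and 7 hexamers, and 0.0503% and 0.0144% of such windows held at least as many. The exon 1A and Nesp blocks held 4 and 2, and 0.301% and 1.57% of windows of their lengths held at least as many. These windows were not matched for CpG content. The 3 hexamer CpGs with the highest coverage are shown with 30 bases of the plus strand, the hexamer in capitals, and all lie in the Nespas start block upstream of the start.
chr2:174121387-174121416, CpG 174121401: agaattaaatcTGCCGCGGCAcacagcatg
chr2:174121389-174121418, CpG 174121403: aattaaatcTGCCGCGGCAcacagcatgca
chr2:174121441-174121470, CpG 174121455: tggtgcataatTGCCGCagcctgctttatg
The first 2 share a palindromic pair of hexamers and moved together, from 40.0% and 39.1% at day 0 to 29.2% and 29.1% at day 29, with 41.0% in wild type at both. The third went from 31.8% to 23.1% and had 40.9% in wild type. Hexamer CpGs were set beside the other CpGs of their block. In the Nespas start block those inside averaged 38.5% at day 0 and retained 76.0%, and those outside averaged 33.5% and retained 72.3%. In the Gnasxl exon block they averaged 36.3% and 35.7% and retained 63.9% and 66.9%. The 3 hexamer CpGs around exon 1A averaged 5.23%, and those within 20 bp of a hexamer 5.14%, so the hexamer also occurred where methylation was low. The core AAGATGG of the YY1 motif, also searched on both strands, had 2 matches in each of the Gnasxl exon and exon 1A blocks and 1 in each of the Nespas start and Nesp intron blocks. A window of the length of the exon 1A block holds it in 62.8% of cases on chromosome 2. For the lengths of the Gnasxl exon, Nespas start and Nesp intron blocks the shares are 49.0%, 29.9% and 19.1%.

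Promoters of 3 other imprinted genes give the scale. Within 1 kb of its annotated starts, Peg3 (a paternally expressed zinc-finger gene) had 45.8% at day 0 and 36.0% at day 29 over 75 CpGs, a retained share of 78.5%. Snrpn (a splicing factor gene) had 29.3% and 25.3% over 25 CpGs, a share of 86.5%, and Nnat (neuronatin) 47.2% and 30.9% over 111 CpGs, a share of 65.4%. The Nespas start and Gnasxl blocks, at 66.8% to 73.6%, lay between Nnat and Peg3 (with at least 100 reads in every group the Gnasxl exon block was at 65.3%), whereas Nesp and exon 1A were below all 3. In wild type Peg3, Snrpn and Nnat had 38.8%, 34.7% and 39.9%, near the 34.7% of Nespas and Gnasxl.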

How the data were processed

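Methylation was measured in 24 SureSelect libraries, 3 for each of 7 TTKO time points and for wild type at day 0. Per the study's methods, the authors used QuasR (aligner Rbowtie, genome mm9, levels by qMeth) and kept CpGs with at least 50 reads. The deposited table gives for each group 1 level in percent methylated reads and 1 coverage as read counts, with the 3 replicates joined, so methylated reads were recovered as coverage times level. Its columns of the authors' fitted rates, confidence and TET activity were not used. The amplicon tables held no CpG of the window and were not used here.

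The window's median coverage per group was 119 to 219 reads, and 404 of its 629 CpGs had at least 100 reads in every group. Each CpG was compared by two-sided Fisher's exact test, with Benjamini-Hochberg adjustment over all 2177608 CpGs and a threshold of 0.05. The over-dispersion of 0.0055 used as an alternative is the parameter the authors set for their amplicon data. For capture data, with its lower coverage, they judged a binomial error model sufficient for the variation between replicates. The quasi-binomial model planned for separate replicates could not be fitted to joined columns. Blocks were runs of CpGs with gaps of at most 300 bp, and block levels were means over CpGs. The retained share was the mean level at day 29 over that at day 0. Rates were fitted on an 80 by 80 grid (DNMT3 decay 0.5 per day, 8% intact alleles, conversion error 0.0025, binomial likelihood), and were used where 95% credible ranges of both rates were under 2 on the log2 scale. Positions and sequences came from NCBIM37 with GENCODE M1 annotation, and all 2177608 positions held a CG. The code was tested on simulated data. Python 3.11.15 with numpy 2.4.6, pandas 2.3.3, scipy 1.17.1 and numba 0.67.0 was used.

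Named CpGs were, per block, those nearest each transcript start and those with the largest and smallest retained share (blocks and CpGs with at least 20% at day 0), and, in the window, those with the largest difference between the lines in either direction and the most covered hexamer CpGs. Others are named as picked after their levels were seen. The window, lists and tests were chosen with earlier results of these data known.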

Additional observations from a re-analysis of the deposited data

How the results depend on the processing

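No paired analysis was possible because the deposited columns join the 3 replicates of each group, and for the same reason no replicate could be left out. The alternative that leaves out amplicon replicates was not run, since no amplicon CpG lies in the window. Of the values recomputed under another setting, 95 stayed within 1.5 times the count, or within the counting interval or the tolerance set for a level or rate, and 67 moved. No difference of a whole block's mean from day 0 or from wild type changed direction by read weighting or at 100 reads. With gaps of 150 bp, the last part of the exon 1A block had 4.48% in TTKO and 5% in wild type, against the block's direction. Orders between blocks also turned as a median over CpGs, among them Nesp against Nesp intron and Nespas start against Gnasxl upstream (73.2% and 73.0%), and that of the de novo and passive rates of the exon 1A block turned without mixed-in intact alleles.

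With a difference of at least 10 points required, 6 CpGs were lower at day 4, 83 at day 10 and 130 at day 13. Of all 2177608 CpGs, 25370, 570856 and 766688 were lower at those days. With the over-dispersion of 0.0055 added, 0, 0, 17, 59, 147 and 218 were lower at days 4, 8, 10, 13, 17 and 29. Of all 2177608 CpGs, 24, 8159, 187628, 492420, 979911 and 1154318 were. Under a Bonferroni adjustment 0, 1, 14, 23, 66 and 93 were lower, and 77 were higher in TTKO than in wild type. Of all 2177608 CpGs, that adjustment left 2615, 22751, 125800, 223249, 551013 and 824028 lower, and 531031 higher in TTKO.

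Weighted by reads, the Nesp block had 28.4% on day 0, 12.5% on day 29 and 9.09% for wild type, the exon 1A block 18.6%, 7.99% and 10.4%, and the Nespas start block 37.7% in wild type. With at least 100 reads in every group, the Nesp block had 29.3%, 12.9% and 9.06% with 43.8% retained, the exon 1A block 20.0%, 8.88% and 12.2%, and the Gnasxl exon block 23.3% at day 29 with 65.3% retained. With gaps of 150 bp, parts of the exon 1A block had 79.1%, 19.3%, 19.8%, 7.32% and 4.48% at day 0, parts of the Nesp intron block 18.0% and 24.3%, and 1 part of the Gnasxl upstream block 32.9%. The zones, added after the data were seen, had 46.9%, 14.9% and 3.40% at Nesp and 68.7%, 8.64% and 11.2% at exon 1A.

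With the intact alleles subtracted (8% of the day 0 level), the retained share was 36.1% in the Nesp block, 27.1% in the Nesp intron, 70.2% in the Nespas start, 64.0% in the Gnasxl exon and 38.3% in the exon 1A block. As a median over CpGs with at least 20% at day 0 it was 34.0% in the Nesp, 38.0% in the Nesp intron and 39.4% in the exon 1A block, and 17.4% in the Nesp 3' intron block, where it rests on 1 CpG. With CpGs of 20 to 80% at day 0 it was 37.2% in the Nesp and 38.9% in the exon 1A block, and again 17.4% in the Nesp 3' intron block. Within 500 bp the Snrpn promoter retained 89.9%, and within 2 points the CpGs of like level to the Nesp 3' intron block retained 50.7%.

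Medians of the log2 de novo rate without mixed-in intact alleles were -5.05 in the Nesp, -5.33 in the Nesp intron, -6.70 in the Nespas start and -4.78 in the exon 1A block, where it was -4.50 as reported and the log2 passive rate -4.64. With a DNMT3 decay of 0.25 per day, the log2 de novo rate was -5.74 in the Gnasxl exon block and the log2 passive rate -4.36 in the exon 1A block. With the over-dispersion, the log2 de novo rate in the exon 1A block was -3.68. The causes were not tested. Depth limits single CpGs most at low levels, where shares of the day 0 level cannot be read.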
